A study of Homo sapiens with 4 samples.

Results

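The 33 genes described here encode the actin cytoskeleton of non-muscle and smooth muscle cells, together with the transcription factor SRF that drives many of them. They were chosen by name, for what their proteins do: 3 actins, 4 myosin II subunits, 4 tropomyosins, 6 calponin family genes and caldesmon, 5 filament cross-linkers, 5 adhesion and PDZ-LIM genes, 5 genes of filament turnover and branching, and SRF. The choice was made with earlier results of these data known. All 33 genes were among the 58219 gene identifiers of the deposited table, and 32 were among the 16132 genes with enough signal to test. The exception was ACTN4.

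The cells were GBM8401, an established human glioblastoma line grown in medium with fetal bovine serum, and total RNA was made into strand-specific libraries. The parental cells (2 libraries) were compared with a temozolomide-resistant line derived from them (2 libraries). Temozolomide is an alkylating drug used against glioma, and the resistant cells were raised in medium containing 200 µM of it for 140 days. The labels name a single resistant derivative, call the libraries biological replicates, and do not say whether drug was present when RNA was taken. A difference between the groups therefore cannot be told apart from a difference that arose by chance in that 1 derivative, or from an effect of drug still in the medium. P-values rest on the spread between the 2 libraries of each group, drawn towards that of other genes of similar level.

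Actin monomers assemble into filaments, myosin II pulls on them, and tropomyosins, calponins and cross-linkers set which filaments are stable and where they attach. SRF binds a short DNA element, the CArG box, in the promoters of many of these genes. Its cofactors MRTFA and MRTFB are held in the cytoplasm by monomeric actin and move to the nucleus when actin polymerises, while a second family of cofactors, the ternary complex factors, directs SRF to immediate early genes such as EGR1 and FOS. In gliomas this machinery is known for its part in cell shape, migration and invasion.

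The labelled cell identity was read against its markers before the comparison. Of 10 glial and glioma markers, the astrocyte genes GFAP, S100B and AQP4 lay below 10 normalised fragments in every library. SOX2 lay between 2.87 and 10.5, and FABP7 between 8.60 and 21.2. Of the 6 tested, 3 fell, namely VIM (74280 and 81177 in parental cells against 47407 and 54488 in resistant cells), NES and CD44, with log2 changes of -0.61, -1.06 and -0.47. The astrocyte glutamate transporter SLC1A3 rose from 2853 and 3275 to 4312 and 4189 (adjusted p = 0.0037), and the oligodendrocyte lineage gene OLIG2 lay between 183 and 237. These markers were named after their values were seen. Smooth muscle is the cell type where several of the 33 genes are most abundant. Of its 7 markers, MYH11 and MYOCD lay below 10 in every library. The 5 others were tested, and ranged from ACTG2, between 12.4 and 27.1, to SMTN, between 2792 and 4900. The 7 fibroblast markers summed to 12832 and 10004 in the 2 parental libraries, against 13383 and 10865 in the 2 resistant ones, with 0 of 7 past the limma test, and 0 at an unadjusted p under 0.05.

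The CArG box is a pair of C, then 6 letters that are all A or T, then a pair of G. It was looked for on both strands of the RefSeq promoter windows (GRCh38.p14; 250 bases before each start site and 50 after), which were present for 30 of the 33 genes and missing for ACTB, MYL9 and TAGLN. A box lay in a window of 6 of those 30 genes, against 438 of 27305 genes, or 1.6%, in the whole table. The 6 genes were SRF, ACTG1, TPM4, FLNA, ACTN1 and CNN2. The group was built around SRF and genes it drives, so these shares are not an independent comparison. The 30 members had 48 windows, and the 27305 genes had 35116. A match describes letters and not a bound site, and a window without one says nothing about SRF at that gene. The stretches below show each box in capitals with 10 bases on either side, read 5′ to 3′ on the gene's own strand, because these are the members whose promoters carry the element that gives the group its name.
SRF, chr6:43171229-43171258, plus strand: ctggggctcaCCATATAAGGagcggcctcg
SRF, chr6:43171249-43171278, plus strand: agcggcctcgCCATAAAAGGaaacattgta
ACTG1, chr17:81512874-81512903, minus strand: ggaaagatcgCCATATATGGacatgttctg
TPM4, chr19:16067355-16067384, plus strand: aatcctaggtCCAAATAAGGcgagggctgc
FLNA, chrX:154374709-154374738, minus strand: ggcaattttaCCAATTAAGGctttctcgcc
ACTN1, chr14:68977718-68977747, minus strand: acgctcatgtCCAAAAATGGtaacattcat
CNN2, chr19:1026509-1026538, plus strand: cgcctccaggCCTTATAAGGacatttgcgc

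SRF is the only member with 2 boxes in its window. The first begins 30 bases before the RefSeq start site and the second 10 bases before it, as the 250 bases in front of that site show, with the boxes in capitals. ACTG1 carries its box 94 bases before the start site.
SRF, chr6:43171019-43171268, plus strand: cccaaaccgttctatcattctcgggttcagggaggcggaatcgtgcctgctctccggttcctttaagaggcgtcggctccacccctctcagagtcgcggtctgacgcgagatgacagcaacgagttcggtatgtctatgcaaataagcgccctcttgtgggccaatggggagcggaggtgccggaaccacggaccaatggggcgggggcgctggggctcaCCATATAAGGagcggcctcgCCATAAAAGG
ACTG1, chr17:81512800-81513049, minus strand: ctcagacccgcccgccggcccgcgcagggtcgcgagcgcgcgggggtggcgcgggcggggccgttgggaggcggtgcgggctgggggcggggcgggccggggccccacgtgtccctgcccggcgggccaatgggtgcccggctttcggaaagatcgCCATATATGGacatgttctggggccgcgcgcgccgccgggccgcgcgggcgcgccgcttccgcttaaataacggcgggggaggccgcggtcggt

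ACTA2, the smooth muscle actin, has no exact box in its windows. After its values were seen, the search was widened to boxes in which exactly 1 of the 6 middle letters is C or G. ACTA2 then had 2 such boxes, 121 and 71 bases before the start site, printed in capitals in the stretch in front of it. ACTN4 also had 2, in separate windows, and CALD1 and ZYX had 1 each, making 4 of 30 genes, or 13.3%, against 8.46% of all genes in the table.
ACTA2, chr10:88952774-88953023, minus strand: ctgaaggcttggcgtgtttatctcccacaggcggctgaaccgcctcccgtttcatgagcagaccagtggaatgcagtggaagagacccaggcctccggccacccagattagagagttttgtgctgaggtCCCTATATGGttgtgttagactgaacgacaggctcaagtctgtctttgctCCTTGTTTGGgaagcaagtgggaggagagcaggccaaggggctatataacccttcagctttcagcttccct

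In the resistant line 22 of the 32 tested genes fell, 2 rose and 8 did not pass the test. The test was limma on log2(value + 1), where a value is the deposited fragment count scaled to its library, and a gene passed at an adjusted p under 0.05 over all 16132 genes. The background in this comparison was high. Among all tested genes 37.1% passed, 20.9% as lower and 16.2% as higher in the resistant line, and the median log2 change was -0.02 against -0.32 for the 32 members. Most members are abundant, and abundant genes fell more often. Among the 5397 genes with a mean of at least 1000, a level chosen after the values were seen, 50.4% passed, 35.2% as lower and 15.1% as higher, with a median of -0.12. Of the 29 members at that level, 22 fell, 0 rose and 7 did not pass, with a median of -0.35. The genes were measured in bulk RNA, where fewer cells expressing a gene and less RNA per cell cannot be told apart.

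**Figure D1:**
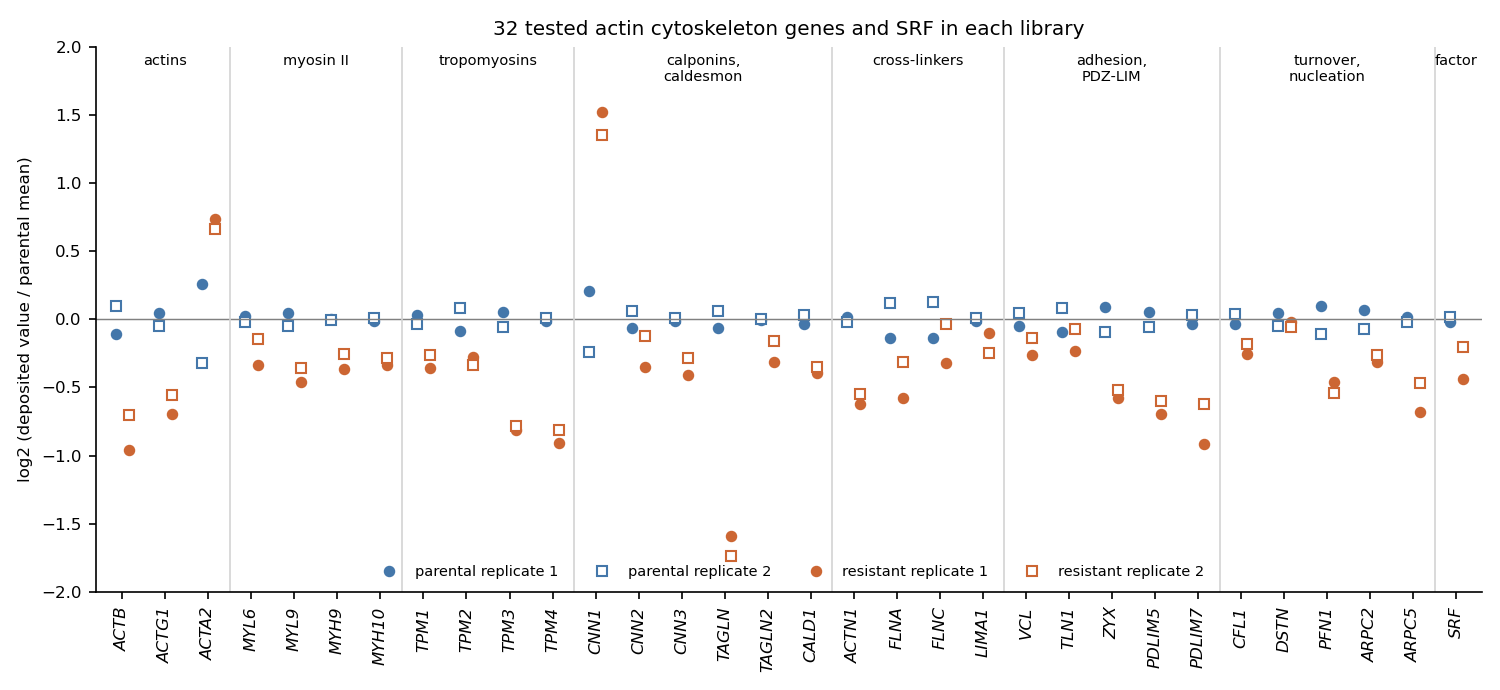
Log2 of each library's deposited value over the parental mean of the gene (vertical axis) for the 32 tested genes, grouped by role. Blue marks are parental and orange marks resistant libraries, circles replicate 1 and open squares replicate 2. The resistant marks of TAGLN lie lowest, and those of ACTA2 and CNN1 lie above 0.

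The parental and resistant libraries did not overlap for 29 of the 32 genes, 27 lying lower and 2 higher in the resistant line. Over all tested genes 68.6% did not overlap, 36.4% lower and 32.2% higher, and among those with a mean of at least 1000 it was 78.0%, 51.8% lower and 26.2% higher. The 3 members whose libraries overlapped were FLNC, TLN1 and DSTN. Of the members that fell, 8 did so by at least 1.5-fold, as did 8.94% of all tested genes and 10.3% of those at 1000 or more. TAGLN alone fell by at least 2-fold, as did 3.01% and 1.45%. Each library was also left out in turn, which leaves an arm of 1 library that is assumed to vary like the other group, so a call lost or gained there rests on the spread of the remaining pair. Without the first resistant library, 12 members fell and 0 rose, and without the second resistant library 0 rose, although ACTA2 and CNN1 both kept an unadjusted p under 0.05 in each case. Scaling each library to its total in place of the authors' factor left 18 members lower and 2 higher, and turned the split over all called genes from 2621 higher and 3370 lower to 3665 higher and 2773 lower.

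The cytoplasmic actins are the building blocks of every filament in these cells, and both fell. ACTB (beta-actin, ENSG00000075624, chr7:5527147-5563784, minus strand) measured 129344 and 148977 in the parental pair and 71569 and 85704 in the resistant pair. Its mean went from 139161 ± 13883 to 78636 ± 9995 (SD, n = 2 each), a log2 change of -0.83 ± 0.10 (SE, adjusted p = 9.08e-04). ACTG1 (gamma-actin, ENSG00000184009, chr17:81509971-81523847, minus strand) measured 89306 and 83578 against 53350 and 58769, a log2 change of -0.63 ± 0.07 (adjusted p = 5.12e-04). Both resistant libraries lay below both parental ones for each gene. The ratio of ACTB to ACTG1 values was 1.45 and 1.78 in parental cells against 1.34 and 1.46 in resistant cells, so these ranges overlapped.

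ACTA2 moved the other way from a level far below theirs. ACTA2 (ENSG00000107796, chr10:88935074-88991339, minus strand) measured 384.0 and 257 in the 2 parental libraries, against 535 and 508 in the 2 resistant ones, a log2 change of 0.73 ± 0.18 (adjusted p = 0.0175). The resistant values were close together and both exceeded the parental ones, which were spread 320.6 ± 89.6 (SD, n = 2). Without the first resistant library the log2 change was 0.69 (adjusted p = 0.079) and without the second 0.76 (0.0531), so the call was lost at a similar size. The size depended on the parental libraries: it was 1.02 without the first and 0.44 without the second, and passed in both cases. The gene overlaps FAS and STAMBPL1 on the other strand, and the strand setting of the authors' counting is not given in the sources used here. FAS measured 433 and 488 against 559 and 501, and STAMBPL1 717 and 770 against 514 and 527, so reads from the partner genes cannot be told apart from those of ACTA2 if strand was ignored.

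The conventional non-muscle myosin II motor is a pair of heavy chains, MYH9 or MYH10, each with an essential light chain such as MYL6 and a regulatory light chain such as MYL9. Of these 4 genes 3 fell and MYL6 did not pass the test. MYH9 measured 78263 and 78162 in the parental pair and 60729 and 65551 in the resistant pair (log2 change -0.31 ± 0.07, adjusted p = 0.00756). MYH10 changed by the same amount from a lower level, 10912 and 11059 against 8728 and 9037 (-0.31 ± 0.07, adjusted p = 0.00812). For each heavy chain both resistant values lay below both parental ones.

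MYL9 measured 1742 and 1629 against 1224 and 1317, a log2 change of -0.41 ± 0.09 (adjusted p = 0.00751). MYL6 measured 4613 and 4476 against 3595 and 4123, with no overlap between the groups but a difference of -0.24 ± 0.09 that did not pass (adjusted p = 0.0594). The first resistant library was the lower of the 2 for all 4 genes. Without it the calls were lost at log2 changes of -0.35 for MYL9 (adjusted p = 0.073), -0.25 for MYH9 (0.0597) and -0.28 for MYH10 (0.059). Without the second resistant library MYL6 passed (adjusted p = 0.0417).

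Tropomyosins lie along actin filaments and decide which other proteins can bind them. The 4 genes split into a pair that fell strongly and a pair with smaller differences. TPM4 (ENSG00000167460, chr19:16067021-16103005, plus strand) measured 20046 and 20335 in parental cells against 10781 and 11509 in resistant cells, a log2 change of -0.86 ± 0.07 (adjusted p = 1.13e-04). TPM3 (ENSG00000143549, chr1:154155304-154194648, minus strand) measured 19815 and 18397 against 10907 and 11088, a change of -0.80 ± 0.07 (adjusted p = 1.63e-04). For both genes the resistant values were close together and far below the parental ones.

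TPM1 measured 7901 and 7536 against 6030 and 6444, a log2 change of -0.31 ± 0.07 (adjusted p = 0.0120). It no longer passed without the first parental library (adjusted p = 0.0559) or without the first resistant one (0.0904). TPM2 measured 329 and 370 against 288 and 278, which did not pass (-0.30 ± 0.13, adjusted p = 0.1002). The balance among the genes shifted: the value of TPM4 was 2.54 and 2.70 times that of TPM1 in the parental libraries and 1.79 times in each resistant library. The ratio of TPM3 to TPM1 was 2.51 and 2.44 against 1.81 and 1.72. Each tropomyosin gene makes several isoforms, and values per gene do not separate them.

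TAGLN had the largest fold decrease among the 32 tested genes. It encodes transgelin (SM22-alpha), an actin-binding protein of the calponin family best known from smooth muscle and a standard SRF target. TAGLN (ENSG00000149591, chr11:117199321-117204782, plus strand) measured 2563 and 2793 in the 2 parental libraries, against 887 and 804 in the 2 resistant ones. Its mean went from 2678 ± 162 to 846 ± 58.6 (SD, n = 2 each), 3.17-fold lower (log2 change -1.66 ± 0.09, adjusted p = 3.2e-05). TAGLN overlaps PCSK7 on the other strand, which measured 1811 and 2211 against 1317 and 1493.

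The paralog TAGLN2 moved little: the ratio of TAGLN to TAGLN2 values was 0.227 and 0.246 in the parental pair and 0.0973 and 0.0795 in the resistant pair. TAGLN2 itself had a log2 change of -0.24 ± 0.08 (adjusted p = 0.0385), which did not pass without the first parental (0.0982), second parental (0.105) or first resistant library (0.262). The calponins, which bind actin and restrain myosin, did not move together. CNN3 fell by 0.35 on the log2 scale (adjusted p = 0.0073, and 0.0631 without the first resistant library). CNN2 measured 7506 and 8195 against 6175 and 7215 and did not pass (adjusted p = 0.0814), although it did without the second resistant library (0.0353).

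CNN1, the smooth muscle calponin, rose from very few reads. It measured 13.0 and 9.56 in parental cells against 32.4 and 28.9 in resistant cells, which correspond to about 16 and 10 fragments against 43 and 34. The log2 change was 1.38 ± 0.35 (adjusted p = 0.0164) and did not pass without the first (0.118) or second resistant library (0.0786). CALD1, caldesmon, which binds actin, myosin and tropomyosin, measured 6822 and 7114 against 5298 and 5459 (-0.37 ± 0.07, adjusted p = 0.00418).

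**Figure D2:**
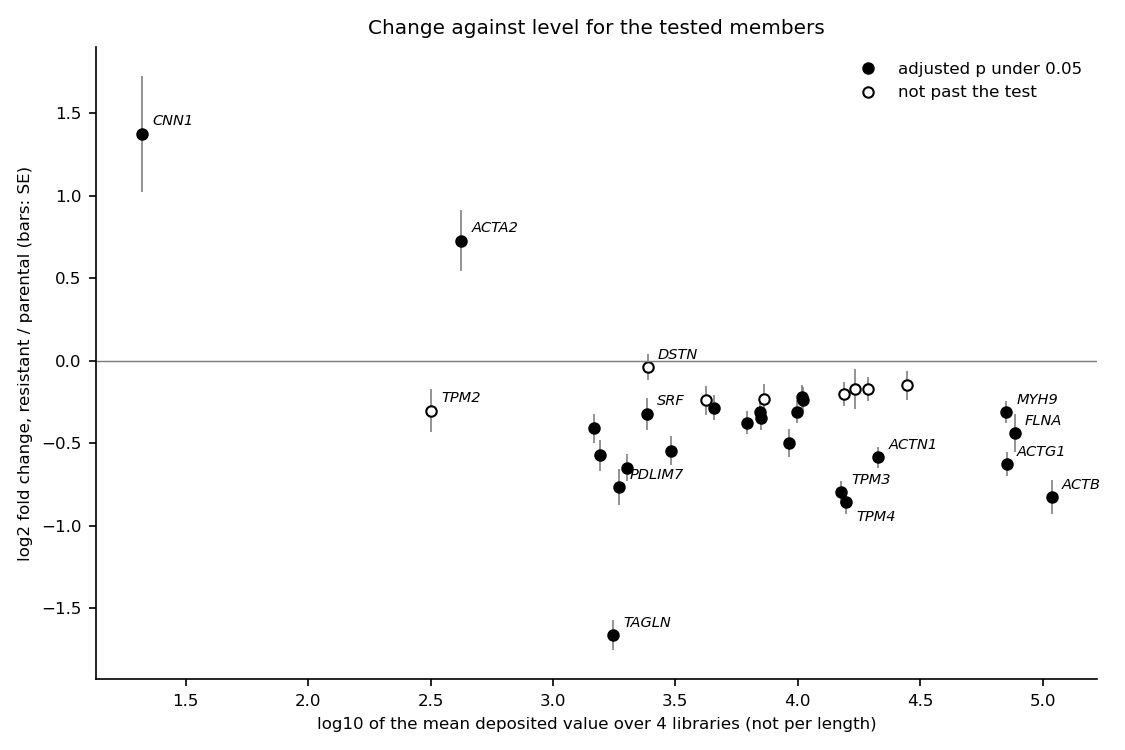
Log2 fold change, resistant over parental, with SE bars (vertical axis), against log10 of the mean deposited value over the 4 libraries (horizontal axis, not per length), for the 32 tested genes. Filled points passed at an adjusted p under 0.05 and open points did not. ACTA2 (0.73) and CNN1 (1.38), which rose, lie at low levels on the left, and ACTB (-0.83) lies furthest right.

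Cross-linkers tie filaments into bundles and networks. ACTN1, alpha-actinin 1, which bundles stress fibres and anchors them at adhesions, measured 25771 and 25208 in the 2 parental libraries, against 16591 and 17393 in the 2 resistant ones, a log2 change of -0.59 ± 0.07 (adjusted p = 4.3e-04). FLNA, filamin A, which links filaments into orthogonal networks, measured 80482 and 96066 against 59232 and 71229 (-0.44 ± 0.11, adjusted p = 0.0206). FLNA varied more between replicates than ACTN1 did, and it did not pass without the second parental (0.07) or first resistant library (0.0863).

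FLNC measured 16460 and 19774 against 14506 and 17729, and these ranges overlapped (adjusted p = 0.315). LIMA1, which stabilises bundles, measured 20350 and 20610 against 19147 and 17287 (adjusted p = 0.102). ACTN4 was listed at 6.51 and 2.87 against 3.01 and 16.1. Its upstream neighbour EIF3K, a translation initiation subunit needed for protein synthesis, was listed between 0 and 2.87 in the 4 libraries, so the low ACTN4 value was not read as absence of the transcript.

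Focal adhesions hold filament ends to the membrane through talin and vinculin, with zyxin and the PDZ-LIM proteins on the filament side. Among the members of this kind, ZYX, PDLIM5 and PDLIM7 fell, and VCL and TLN1 did not pass. PDLIM7 measured 2296 and 2397 in the parental pair and 1246 and 1529 in the resistant pair (log2 change -0.77 ± 0.11, adjusted p = 0.00111). PDLIM5 measured 2542 and 2363 against 1517 and 1616 (-0.65 ± 0.08, adjusted p = 7.62e-04). ZYX, zyxin, which is recruited to strained filaments, measured 3846 and 3392 against 2429 and 2526 (-0.54 ± 0.09, adjusted p = 0.00193). For all 3 genes every resistant value lay below every parental one, and each was called in all 12 alternative settings.

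VCL, vinculin, measured 15939 and 17000 against 13741 and 14950, apart but not past the test (-0.20 ± 0.07, adjusted p = 0.0665). TLN1, talin 1, measured 27589 and 31210 against 25009 and 28048, with overlapping ranges (-0.15 ± 0.09, adjusted p = 0.219). The difference between these 2 genes and the 3 that fell was not tested. Related genes outside the members did not follow that split. The talin TLN2 fell (log2 change -0.67), and PDLIM1 (0.58) and PDLIM4 (0.30) rose. PDLIM2 and PDLIM3 did not pass.

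Among genes of filament turnover, ARPC5, a subunit of the branching Arp2/3 complex, measured 1881 and 1836 in parental cells against 1158 and 1347 in resistant cells (log2 change -0.57 ± 0.10, adjusted p = 0.00248). PFN1, profilin, which loads monomers onto growing ends, measured 11569 and 10063 against 7881 and 7430 (-0.50 ± 0.08, adjusted p = 0.00277). ARPC2, another Arp2/3 subunit, fell by 0.28 on the log2 scale (adjusted p = 0.0226).

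Of the severing proteins, CFL1, cofilin, fell by 0.22 on the log2 scale (adjusted p = 0.0404), whereas DSTN, destrin, measured 2558 and 2383 against 2432 and 2376 (-0.04 ± 0.08, adjusted p = 0.744). DSTN was the member nearest to no difference. The sign of its value was positive under library size scaling and without the first parental library. CFL1 did not pass when any single library was left out, with adjusted p from 0.0645 to 0.218. ARPC2 did not pass without the first parental (0.114), first resistant (0.125) or second resistant library (0.0682).

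SRF itself (ENSG00000112658, chr6:43171299-43181507, plus strand) fell slightly. It measured 2641 and 2709 in the 2 parental libraries, against 1970 and 2329 in the 2 resistant ones, 1.25-fold lower (log2 change -0.32 ± 0.10, adjusted p = 0.0304). The resistant libraries differed from each other by more than the parental ones did. SRF was called in 7 of the 12 alternative settings. The call did not hold without the first parental (0.0571) or second parental library (0.0807), nor without the first resistant library, where the log2 change was -0.20 (0.251).

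Among the 6 members with a CArG box in their window, 5 fell, CNN2 did not pass, and the median log2 change was -0.51. Among the 23 tested members with a window and no box, 14 fell and 2 rose, with a median of -0.30. ACTB, MYL9 and TAGLN, for which the table held no window, all fell. No test was made between these sets.

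Together the 33 genes made up 2.54% and 2.57% of all deposited signal in the parental pair and 1.88% and 2.00% in the resistant pair. ACTB alone went from 0.522% and 0.577% to 0.309% and 0.354%, and ACTG1 from 0.3602% and 0.324% to 0.230% and 0.243%. The other 31 genes went from 1.65% and 1.67% to 1.34% and 1.40%. In each of these sums both resistant libraries lay below both parental ones. With 2 libraries against 2, an exact two-sided permutation test cannot give a p below 0.333, so none is given for a share.

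**Figure D3:**
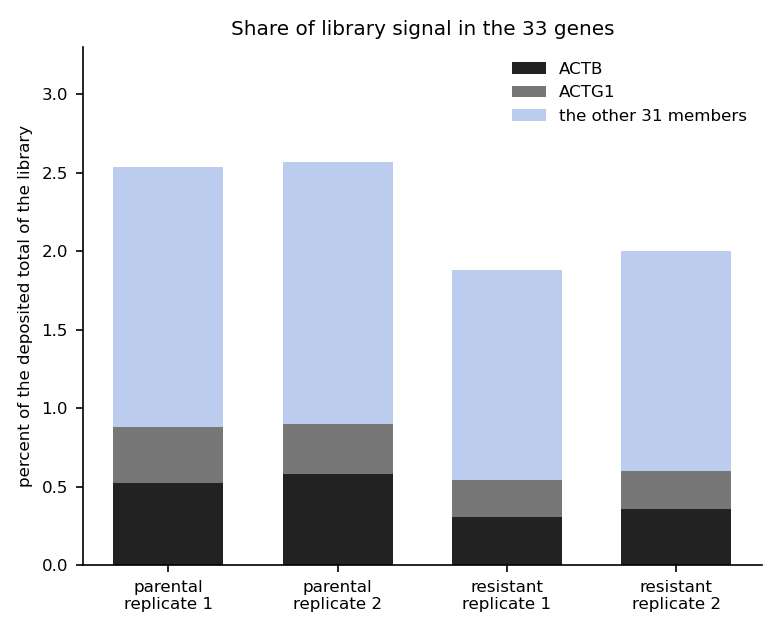
Share of each library's deposited total, in percent, taken by ACTB, ACTG1 and the other 31 genes, as 1 stacked bar per library starting at 0. The parental bars reach 2.54% and 2.57% and the resistant bars 1.88% and 2.00%.

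Levels between genes were compared per kilobase of annotated exon, since a long transcript yields more fragments. On that scale ACTB was highest in the parental cells at 39545 ± 3945 per kilobase (SD, n = 2) and ACTG1 second at 28881 ± 1353, and their libraries did not overlap. These actins carried 53.4% of the summed level per kilobase of the 33 genes. MYH9 at 8679 and FLNA at 8340 followed, overlapping each other, then PFN1 at 5443 and TAGLN2 at 4547.

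SRF ranked 24 of 33 at 637 per kilobase, near DSTN at 641. At the bottom, ACTA2 and TPM2 were level at 108 per kilobase, above CNN1 at 3.91, with ACTN4, whose value is in doubt, listed last. In the resistant cells ACTB and ACTG1 kept ranks 1 and 2, TAGLN went from rank 22 to 27, TPM4 from 11 to 16 and TPM3 from 12 to 15. With the longest transcript as length the parental and resistant ranks were 24 and 28 for TAGLN, 7 and 10 for TPM4, 11 and 14 for TPM3, and 26 and 25 for SRF. ACTA2 stayed the least abundant of the 3 actins, at 175 per kilobase against 22346 for ACTB.

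Another 8 lists of related genes, chosen with earlier results of these data known, hold 149 genes, of which 141 were tested. Of these 21 rose, 46 fell and 74 did not pass, with a median log2 change of -0.12. Without the second resistant library 13 rose. Over all tested genes 16.2% passed as higher and 20.9% as lower. For those with a mean of at least 1000 the shares were 15.1% and 35.2%, with a median of -0.12. The counts per list below stand beside these shares, and no list was tested as a set. Only the immediate early targets had a median above 0 (0.57), and the bundlers and membrane linkers had the lowest (-0.52). The other lists had medians between -0.18 and -0.07, near that of the genes at 1000 or more.

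**Figure D4:**
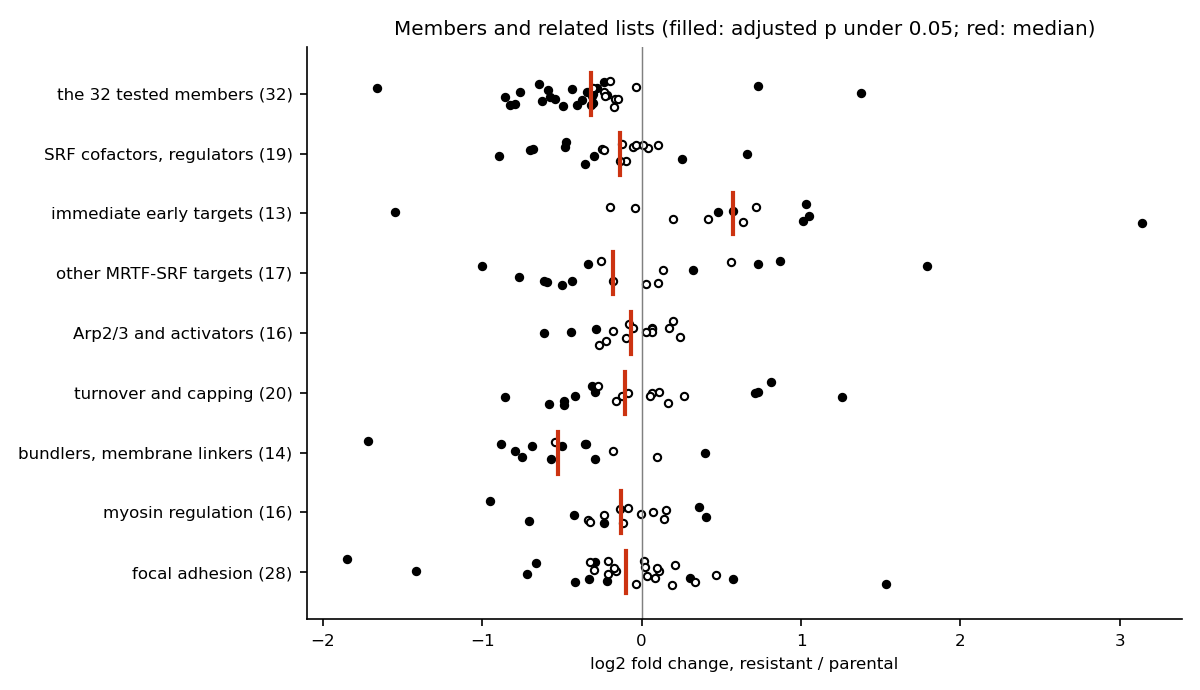
Log2 fold change, resistant over parental, of every tested gene in the 33-gene group and in the 8 related lists, 1 row per list with its number of tested genes, spread vertically only to separate points. Filled points passed at an adjusted p under 0.05 and the red line is the median, which is -0.52 for bundlers and membrane linkers and 0.57 for immediate early targets.

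The list nearest to SRF holds its cofactors and regulators of actin such as LIMK2, with 2 of 19 tested genes higher, 7 lower and a median of -0.13. MRTFB measured 2521 and 2507 in parental cells against 1698 and 1927 in resistant cells (log2 change -0.47 ± 0.09, adjusted p = 0.0039). MRTFA measured 1064 and 1190 against 891 and 1009 and did not pass (-0.25 ± 0.10, adjusted p = 0.0972). Myocardin, MYOCD, the smooth muscle cofactor, was listed at 0 in both parental libraries and at 1.51 and 0.85 in the resistant ones.

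In the same list LIMK2, which inactivates cofilin, fell by 0.90 on the log2 scale (adjusted p = 3.44e-04). ROCK2, a kinase that activates myosin II, and DIAPH1, a formin that elongates filaments, fell by 0.68 and 0.48. The ternary complex factors parted: ELK3 fell by 0.70, and ELK4 rose by 0.25 (adjusted p = 0.0300, and between 0.119 and 0.147 without the first parental or either resistant library). The other gene that rose was the cofilin phosphatase SSH3, by 0.66 (adjusted p = 0.0280), which did not pass without the first parental (0.0997) or second resistant library (0.210). ELK4 and SSH3 were named after their values were seen, as was FOS further on.

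The immediate early genes were listed as targets of SRF and the ternary complex factors, and their control by these factors was not tested. Of these genes 6 of 13 tested rose, 1 fell and 6 did not pass, with a median of 0.57. EGR1 measured 448 and 393 in the 2 parental libraries, against 3517 and 3910 in the 2 resistant ones, a log2 change of 3.14 ± 0.10. JUNB rose by 1.05 and FOS by 1.03, from 196 and 143 to 383 and 308. FOSL1, the exception, fell from 3716 and 3394 to 1171 and 1265 (-1.54 ± 0.09).

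Other genes described as targets of MRTF and SRF split, with 4 of 17 tested genes higher, 7 lower and a median of -0.18. Without either resistant library 2 rose. ANKRD1, also a target of the YAP pathway, measured 7484 and 7754 against 26970 and 25846, a log2 change of 1.79 ± 0.07. ANKRD1 lies 1.93 Mb from ACTA2 on chromosome 10, among the neighbours described further on. CCN2, a secreted matrix protein, rose by 0.87. ACTR3, the actin-related core of the Arp2/3 complex, fell by 0.62.

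The list that fell most often was that of other bundlers and membrane linkers, with 10 of 14 tested genes lower, 1 higher and a median of -0.52. LCP1, the bundler plastin 2, measured 940 and 751 in the parental pair and 278 and 234 in the resistant pair (log2 change -1.72 ± 0.15). MARCKS, which ties filaments to the membrane, fell by 0.88, PALLD (palladin) by 0.80, and ANLN (anillin, of the contractile ring) by 0.75.

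In the list of other turnover and capping genes 4 of 20 rose and 7 fell, with a median of -0.11. CORO1C, a coronin, fell by 0.86, and the severing protein GSN (gelsolin) rose by 0.81, from 1447 and 1673 to 2548 and 2933. The rest of the Arp2/3 complex and its activators had 3 of 16 lower and 0 higher by limma (also 0 at an unadjusted p under 0.05), with a median of -0.07, and 13 did not pass. The 3 were ACTR3, ARPC5L and NCKAP1. ARPC5L did not pass without the first resistant library (adjusted p = 0.0521), nor NCKAP1 without the first (0.0599) or second (0.0697).

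Myosin regulators and unconventional myosins had 2 of 16 higher and 4 lower, with a median of -0.13. Without the first resistant library 1 rose and 2 fell, without the second 0 rose, and without the first parental library 1 rose. MYO10, the filopodial myosin, fell by 0.95, and MYO6, which walks towards the minus end of filaments, rose by 0.41 (adjusted p = 0.00659, and 0.0576 without the second resistant library). Among other focal adhesion genes 3 of 28 rose and 8 fell, with a median of -0.10. Without the second parental library 6 rose and 5 fell, and without the first resistant library 5 fell. The tensins TNS1 and TNS3, which link integrins to actin, fell by 1.85 and 1.41, TNS1 from 3910 and 3917 to 1053 and 1121. ITGB3, the integrin beta-3 chain, rose from 139 and 165 to 408 and 475 (log2 change 1.53 ± 0.15).

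The members that rose were read beside their neighbours on the chromosome. Of the 45 tested protein-coding genes within 5 Mb of ACTA2, 13 rose and 5 fell, with a median log2 change of 0.10. Further along chromosome 10, more than 5 Mb past ACTA2 towards higher coordinates, 122 of 212 rose and 6 fell, with a median of 0.49. On the other side, more than 5 Mb before it, 31 of 275 rose and 88 fell, with a median of -0.10. The change of ACTA2 itself was 0.73, and its nearest neighbours differed by side. Towards higher coordinates IFIT2, IFIT3, IFIT1 and LIPA rose, with log2 changes of 1.35, 0.64, 0.68 and 0.64, and IFIT5 did not pass. On the other side FAS did not pass and STAMBPL1 fell (-0.51). Gene copy number was not measured, and its part in the ACTA2 result was not tested. Around CNN1 on chromosome 19, 38 of 188 neighbours rose and 33 fell, with a median of 0.04.

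**Figure D5:**
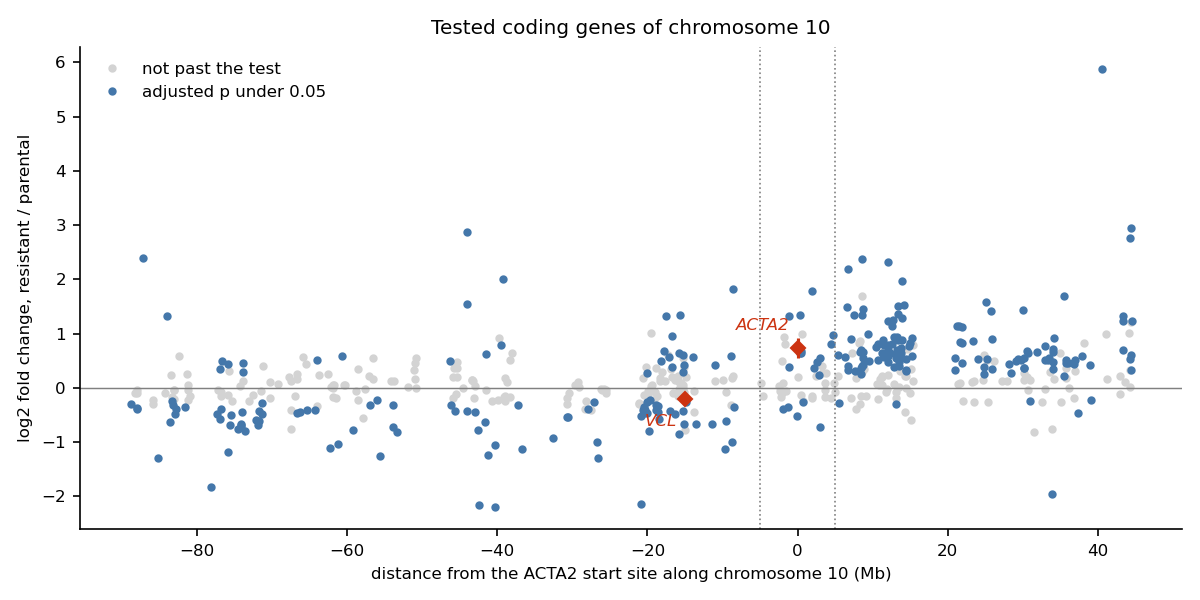
Log2 fold change, resistant over parental, of tested coding genes on chromosome 10 against distance from the ACTA2 start site in Mb, with ACTA2 and VCL as red diamonds and dotted lines 5 Mb to either side. Blue points passed at an adjusted p under 0.05. The medians are -0.10 left of the dotted lines, 0.10 between them and 0.49 to the right.

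Markers of other cell types were set beside these results. The 7 smooth muscle markers, some of which are actin regulators themselves, summed to 4510 and 5159 in parental cells against 3145 and 3584 in resistant cells, with 1 of 5 tested genes higher (LMOD1) and 1 lower (SMTN). The 6 epithelial markers summed to 18865 and 20696 against 35419 and 37045. The keratins KRT8 and KRT18 rose, by 1.07 and 0.85 on the log2 scale, and EPCAM, CDH1, KRT19 and CLDN4 did not pass. The 6 endothelial markers summed to 1427 and 1630 against 997 and 889, and 3 of them fell, TIE1, CDH5 and TEK, with log2 changes of -3.76, -1.30 and -0.39. The 6 hematopoietic markers summed to 672 and 614 against 1041 and 1093, with 1 of 4 tested genes higher (CD68, by 0.86) and HBB below 10 in every library. The fibroblast sum was larger in the first library than in the second within each group, and so was ACTA2. The part of other cells in these results was not tested.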

How the data were processed

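RNA from 2 parental and 2 temozolomide-resistant GBM8401 libraries was sequenced. The genome build was GRCh38.p10 and the named programs were Cufflinks 2.2.1, Cuffdiff, HISAT2 2.1.0, Trimmomatic 0.36, SAMtools 1.2 and bcl2fastq, per the submitters' processing notes. The deposited signal values are per-gene fragment counts multiplied by 1 factor per library. Between 93.2% and 94.2% of values above 0 were whole multiples (within 0.05) of the value of 1 fragment, which puts depth at 27019114 to 30759913 fragments. Deposited totals were 23163310 to 25832511. Depth limits only the lowest genes, such as CNN1. Replicates correlated at r = 0.989 and 0.991 across genes, and libraries of different groups at 0.965 to 0.971.

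Symbols were matched for 57881 of 58219 identifiers and exon lengths taken from GENCODE 29. Genes with at least 10 in at least 2 libraries were kept (16132). Values were tested as log2(value + 1) with limma 3.58.1 in R 4.3.3 (trend and robust moderation, two-sided, Benjamini-Hochberg adjustment over all tested genes), after a check on simulated data. Fold changes are on that scale and understate changes of low genes. Spread is given as SD over n = 2, or as the SE of the fit, which uses the moderated variance. The values were not whole enough for count-based tests, which were not run. Alternatives were other scalings, pseudocounts, filters and moderation, a replicate block, and leaving out each library. Named genes outside the members are among the 4 with the smallest adjusted p in their list, with MRTFA, MRTFB, MYOCD and 3 genes said to be named later; 2 genes are not reported here. The members and lists were chosen with earlier results of these data known.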

Additional observations from a re-analysis of the deposited data

How the results depend on the processing

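Of the 24 members that passed, 10 passed in all 12 alternative settings (ACTB, ACTG1, TPM3, TPM4, TAGLN, ACTN1, ZYX, PDLIM5, PDLIM7 and ARPC5) and 14 were lost in at least 1. Of the 8 that did not pass, 7 passed in at least 1 setting and DSTN in none. Without trend and robust moderation 3686 genes passed in place of 5991, with 1 member higher and 10 lower, and 13 related genes higher and 29 lower. With library size scaling 35 related genes rose in place of 21, the members' median was -0.22, the median of all genes turned to 0.0765 and DSTN to 0.0569; with no filter the median of all genes was 0.0056. Leaving out each library gave DSTN values of -0.0895 to 0.0128, 3528 to 5435 genes, 0 to 2 members higher and 12 to 22 lower, 13 to 23 related genes higher and 34 to 49 lower, and a members' median of -0.38 to -0.28. With the longest transcript as length ACTB and ACTG1 carried 51.3% of the level per kilobase. The causes were not tested. Replicate numbers are shared between groups, but nothing says that they pair libraries, and with 2 pairs the correlation of deviations (0.265) does not settle it. A replicate block, which leaves 1 residual degree of freedom, gave 8624 genes, with 2 members higher and 29 lower, and 31 related genes higher and 63 lower. Depth limits CNN1.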
